A study of Rattus norvegicus with 2 samples.

Results

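The genes described are the ABC transporters of subfamilies A to G, the organic ion carriers of the Slc22a family, the organic anion transporting polypeptides (Slco genes) and the 2 multidrug and toxin extruders Slc47a1 and Slc47a2. They were taken by their gene names on the arrays. The rule found 79 genes of 26328 gene names, and they were read by 187 spots carrying 97 probes of the 42877 non-control spots and 30367 probes. RNA of the hypothalamus, the brain region that governs hormones, feeding and autonomic tone, was measured in rats of the normotensive Wistar Kyoto strain at 9 weeks of age. The female pool held RNA of 5 rats and the male pool RNA of 5 rats, mixed as 100 ng from each, and each pool was hybridised to 1 Agilent 1-colour array. Neither pool had been treated, and the phase of the female cycle was not stated in the sources used here. Each sex therefore had 1 array of 1 pool with no replicate, no p-value was possible, and the spread between rats is hidden in the pools.

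ABC proteins use ATP to pump lipids, drugs and conjugated metabolites across membranes, most often out of the cell. Slc22a, Slco and Slc47a carriers move organic anions and cations by exchange or along gradients, and they are best known from kidney and liver. In the brain such proteins sit at the barriers: P-glycoprotein and its partners in the capillary endothelium, another set in the choroid plexus epithelium, and organic anion and cation carriers in the cells of the arachnoid and pia, the membranes that cover the brain.

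The level of a gene is given as log2 of its intensity minus the 75th percentile of the array, or as the intensity in percent of that percentile, which was 2943 in the female pool, against 3769 in the male pool. Probes of different genes bind with different strength, so levels were compared between pools and never between genes. All differences are female minus male. A gene was measured in a pool where over 50% of the spots of at least 1 of its probes were well above background, a flag set by the scanner software. The technical SD given with a difference is the spread over the spots of a probe printed several times. For a probe on 1 spot it is the spread over the 300 repeated spots of nearest level. Where several probes were averaged, it is the error of their mean from these values, without the spread between probes. It covers scatter within the slide and not rats, labelling or hybridisation. Slide bands are bins of 20 rows where at least 2% of repeated spots departed from their own probe's median by over 4 robust SDs. Inside the bands 5.40% of repeated spots departed and outside them 0.805%, a contrast set by this choice of rows. The bands held 32.4% of the non-control spots. All 10 neuropeptide and transcription factor genes listed as markers of the hypothalamus were measured in both pools, beside 78.5% of all gene names, so their detection is a weak check of the tissue. Their median difference was 0.11. The largest differences among them were 0.41 for Crh, -0.30 for Agrp, -0.28 for Pomc and -0.27 for Avp. The spots of Agrp and Pomc lay inside a band.

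The probes of the organic ion carriers of the covering membranes and of Abcb1a are shown so that the measured transcript end can be identified. The first 30 of 60 bases are given for each, or the whole probe where its last 3 bases, in capitals, are a stop codon closing an open reading frame over the probe. Positions are those of the deposited files, build rn4, and bases run 5′ to 3′ on the transcript strand.
Slc22a2, chr1:42395683-42395742, minus strand: ctgtgggccaggacaaccaactattaaaga
Slc22a6, chr1:211302331-211302390, plus strand: tggtcactccgccacctccaggaccttgca
Slc22a8, chr1:211287537-211287596, plus strand: cttaccttgcccaaactctctccttggtgg
Slc47a1, chr10:47514303-47514362, minus strand: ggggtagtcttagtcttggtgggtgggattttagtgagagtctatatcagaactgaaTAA
Abcb1a, chr4:21795859-21795918, plus strand: gtaaatatttgataatatatacttttattt
The probes of Slc22a8 and Slc22a6 lay 14.7 kb apart on chromosome 1. The deposited files did not state exon, intron or coding annotation for these positions.

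Of the 79 genes, 62 were measured in both pools, a share of 78.5%, which equals the 78.5% found over all gene names. Detection counts of the lists below are to be read beside that share. The transporters as a set lay slightly lower in the female pool. In the female pool 20 of the 62 genes lay higher and 42 lower, at a median difference of -0.047, against 10338 higher and a median of 0.00012 among all 20664 genes measured in both pools. The split was 13 higher and 49 lower when the arrays were scaled on spike-in probes, where 30.1% of all genes were higher. It was 32 higher and 30 lower after a normexp background correction fitted without spots of flagged local background, where 63.6% of all genes were higher. Minus the median of all genes, the median of the set was -0.046 after that correction. With spike-in scaling it was -0.047, which could not change, since that scaling moves all genes by the same amount. With the planned normexp fit on all spots, the set and all genes both had a median of -0.55. Differences were small: 59 of 62 genes lay within 1.5-fold, beside 97.6% of all genes. Slc47a1 and Slc22a6 exceeded the male pool by 2-fold or more, 3.23% of the measured transporters, beside 0.508% of all genes. No further transporter was higher by 1.5-fold or more, beside 1.56% of all genes higher and 0.842% lower at that fold, and 0.339% of all genes were lower by 2-fold or more. The plot of all genes shows where both lay.

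**Figure D1:**
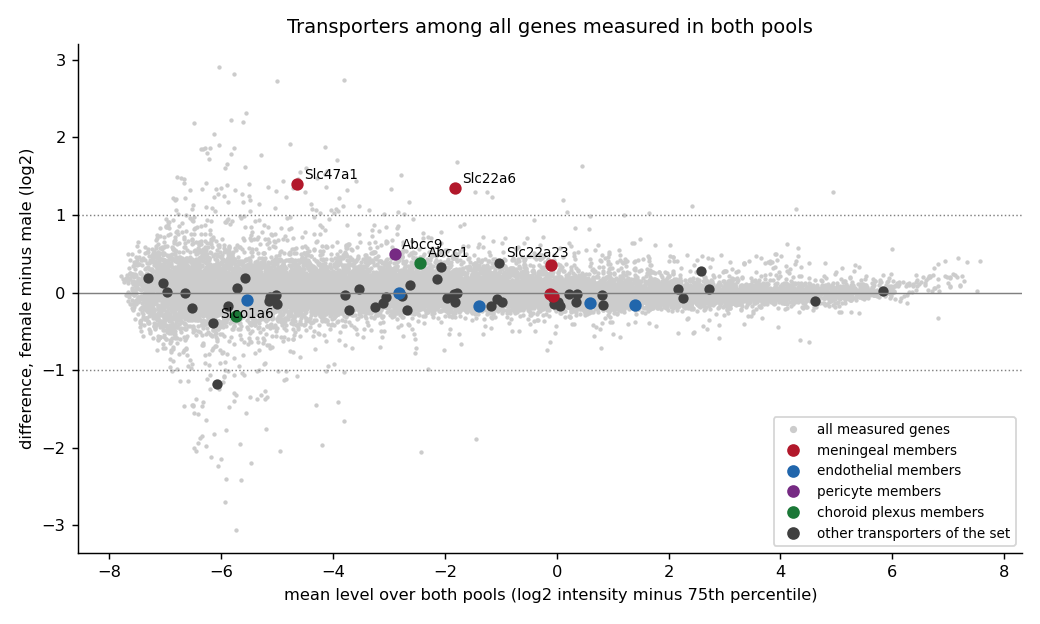
Difference in level, female minus male (log2), against the mean level over both pools, for all 20664 genes measured in both pools (grey) and the 62 transporters among them, coloured by list; dotted lines mark 2-fold. Most transporters sit close to 0, and Slc47a1 and Slc22a6 stand above the upper line.

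Of the 8 genes listed as transporters of the cells of the brain's covering membranes, 6 were on the arrays, since Abca6 and Abca9 carried no probe under those names. The 4 carriers of organic ions were higher in the female pool, while the 2 ABC genes lay close to 0. Slc22a6 encodes OAT1, the exchanger that takes up p-aminohippurate in the kidney. It had 44.9% of the 75th percentile in the female pool, against 17.7% in the male pool. The difference was 1.34, or 2.54-fold, with a technical SD of 0.084. Slc22a8, which lies beside it in the genome and encodes the related anion exchanger OAT3, had 106% in the female pool, against 82.7% in the male pool. That was a difference of 0.36, or 1.28-fold, with a technical SD of 0.11. The neighbours therefore both lay higher in the female pool, by unequal amounts.

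Slc47a1 encodes MATE1, which exchanges organic cations for protons and secretes them into urine and bile. Its intensity was 6.48% of the 75th percentile in the female pool, against 2.47% in the male pool, a difference of 1.39, or 2.63-fold, with a technical SD of 0.16. Slc22a2 encodes OCT2, the uptake carrier that works in series with MATE1 in the kidney tubule. It had 2.22% in the female pool, well above background, and 0.392% in the male pool, where it was not well above background. The difference was therefore a bound of 2.48 on the log2 scale, at least 5.57-fold. Among all genes measured in the female pool only, 35.8% had a bound of 2-fold or more. The other gene of the set measured in the female pool only was Slco4c1, a kidney carrier of digoxin and thyroid hormone, with a bound of at least 1.14-fold.

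Abca8 and Abca8a belong to the ABCA6-like lipid transporters, and their probes lay 86.1 kb apart on chromosome 10. The level of Abca8 was -0.081 in the female pool, against -0.043 in the male pool, a difference of -0.038 with a technical SD of 0.046. Abca8a was printed on 10 spots, of which 9 were used. The spot differences ran between -0.041 and 0.0085 with a mean of -0.021 ± 0.017 (SD over 9 spots), and 8 of 9 spots were lower in the female pool. Neither ABC gene differed between the pools by more than 1.03-fold.

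The place of the spots limits the comparison of the carriers. The spots of Slc22a6, Slc22a8 and Slc47a1 each lay inside a slide band, while that of Slc22a2 lay outside. Around the spot of Slc22a6, 10 of 125 nearby repeated spots departed from their probe's median. The counts were 3 of 123 around Slc47a1, 2 of 131 around Slc22a8 and 0 of 72 around Slc22a2. Inside the bands 1.25% of all genes were higher by 2-fold or more in the female pool and 1.15% lower by as much, while outside them the shares were 0.233% higher and 0.0241% lower. Each of the 3 carriers had 1 probe on 1 spot, so a spot defect and a difference between the pools cannot be told apart for any single one of them. With a normexp correction fitted on all spots, which lowered the median of all genes by 0.55, Slc47a1 came out at -0.99 and the bound of Slc22a2 at -1.86. Fitted without spots of flagged local background, the same correction gave 1.09 and 1.04.

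**Figure D2:**
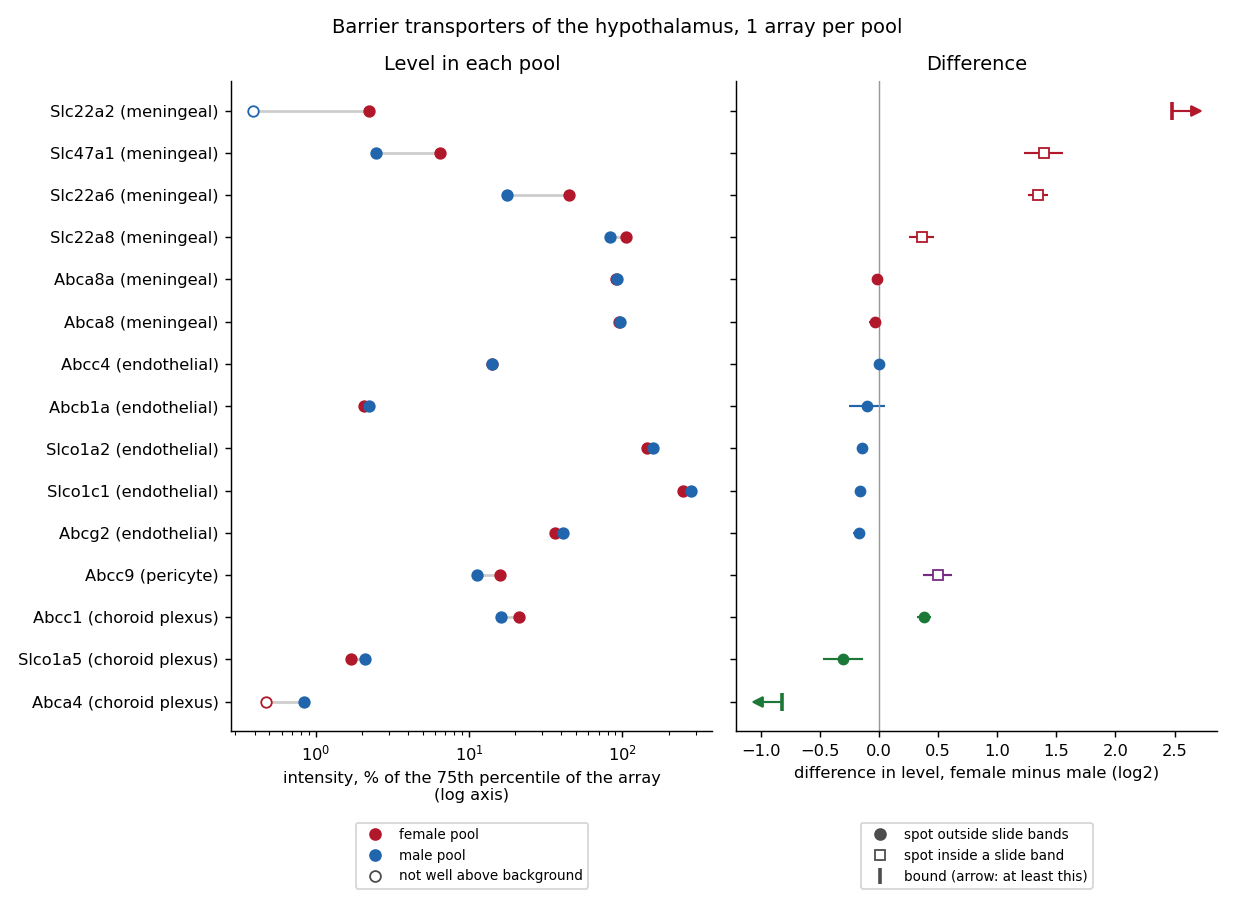
Left, intensity of each barrier transporter in the female pool (red) and the male pool (blue), in percent of the array's 75th percentile on a log axis, with open circles for levels not well above background; right, the difference (log2) with its technical SD as the bar, open squares for genes on a spot inside a slide band and filled circles for the others. Slc22a2, Slc47a1 and Slc22a6 show the widest gaps, and the endothelial genes lie at or just below 0.

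The 5 carriers of the capillary wall were measured in both pools, and the largest difference among them was 1.13-fold. Abcb1a, the P-glycoprotein gene of rodent brain capillaries, had a level of -5.60 in the female pool, against -5.50 in the male pool. Its difference of -0.10 was smaller than its technical SD of 0.15, and it was 0.14 after the normexp correction without spots of flagged local background. Abcg2, the breast cancer resistance protein that shares many drugs with P-glycoprotein, had 36.1% of the 75th percentile in the female pool, against 40.7% in the male pool, a difference of -0.17 with a technical SD of 0.046. Abcc4, the nucleotide and steroid conjugate pump MRP4, had 2 probes, which differed by -0.042 and 0.044, and a mean difference of 0.00054. None of these 3 efflux pumps parted the pools by more than 1.13-fold.

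The uptake carriers of the same cells were slightly lower in the female pool. Slco1c1, which carries thyroxine into the rodent brain, had a level of 1.32 in the female pool, against 1.48 in the male pool, a difference of -0.16 with a technical SD of 0.040. The probe named Slco1a2 on the arrays had an accession that now belongs to Slco1a4, the Oatp2 of rat capillaries and choroid plexus. Its level was 0.52 in the female pool, against 0.66 in the male pool, a difference of -0.14 with a technical SD of 0.043. Differences of Abcg2, Slco1c1 and Slco1a2 were over 3 times the technical SD, yet lay inside the SD of 0.23 over all genes. All 5 genes lay outside the slide bands.

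Set beside each other, the meningeal transporters had a median difference of 0.36 over 5 genes measured in both pools, or 0.85 with Slc22a2 at its bound, and the endothelial transporters had one of -0.14 over 5 genes. The 0.36 was the value of Slc22a8, read on 1 spot inside a band. The medians were 0.50 apart. Without the slide bands only Abca8 and Abca8a stayed measured among the meningeal genes, with a median of -0.031, and the gap to the endothelial median became 0.11. Slc22a2 kept its bound there, since it lay outside the bands. Genes of a list share their cells and are not replicates of the pools.

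Carriers of the same cells from other families were set beside them. The list of other meningeal carriers held 5 genes on the arrays, all outside the slide bands. The 4 measured in both pools were higher in the female pool, their median difference being 0.79. Slc6a20, a proline and imino acid carrier, differed by 1.33 or 2.51-fold. Slc6a13, the GABA and taurine carrier GAT2, differed by 1.17 or 2.25-fold, the dicarboxylate carrier Slc13a3 by 0.40 and the betaine carrier Slc6a12 by 0.13. The sulfate carrier Slc13a4 was measured in the female pool only, at least 2.86-fold higher. Of the 17 other endothelial carriers, 10 lay higher and 7 lower in the female pool, the median being 0.010. The glucose carrier Slc2a1 differed by 0.15 and the lipid carrier Mfsd2a by -0.0043, while the largest value was 0.61 for the manganese exporter Slc30a10, inside a band. Outside the bands, the thiamine carrier Slc19a3 differed by 0.46, the taurine carrier Slc6a6 by 0.26 and the glutamine carrier Slc38a5 by -0.18.

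The markers of the covering membranes lay on the same side as the organic ion carriers of these cells, while Abca8 and Abca8a lay close to 0. The lists were chosen with earlier results of these data known, so the shared side is not independent support. All 17 measured meningeal markers were higher in the female pool, the median being 0.71, and 14 of them by at least 1.5-fold. Their summed intensity was 696% of the 75th percentile in the female pool, against 401% in the male pool. None of the 19 on the arrays was below background in both pools, though Dpp4 and Osr1 were measured in the female pool only. The largest were Cdh1, an adhesion molecule of the arachnoid, at 2.82, the retinoic acid enzyme Aldh1a2 at 1.92, the transcription factor Foxc2 at 1.36 and the matrix protein Ogn at 1.30. Of these, only Aldh1a2 lay inside a band. With the bands left out, 13 of 13 were higher, with a median of 0.88. The 19 measured endothelial markers had a median of 0.015 and a summed intensity of 787% in the female pool, against 803% in the male pool. Their largest differences were 0.32 for Foxq1, -0.27 for Tie1, 0.24 for Lef1 and -0.18 for Emcn. Of these, only Lef1 lay outside the bands. In whole tissue, more cells of a type and more RNA per cell cannot be told apart, and the part of the meningeal markers in the differences of Slc22a6, Slc22a8, Slc22a2 and Slc47a1 was not tested.

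**Figure D3:**
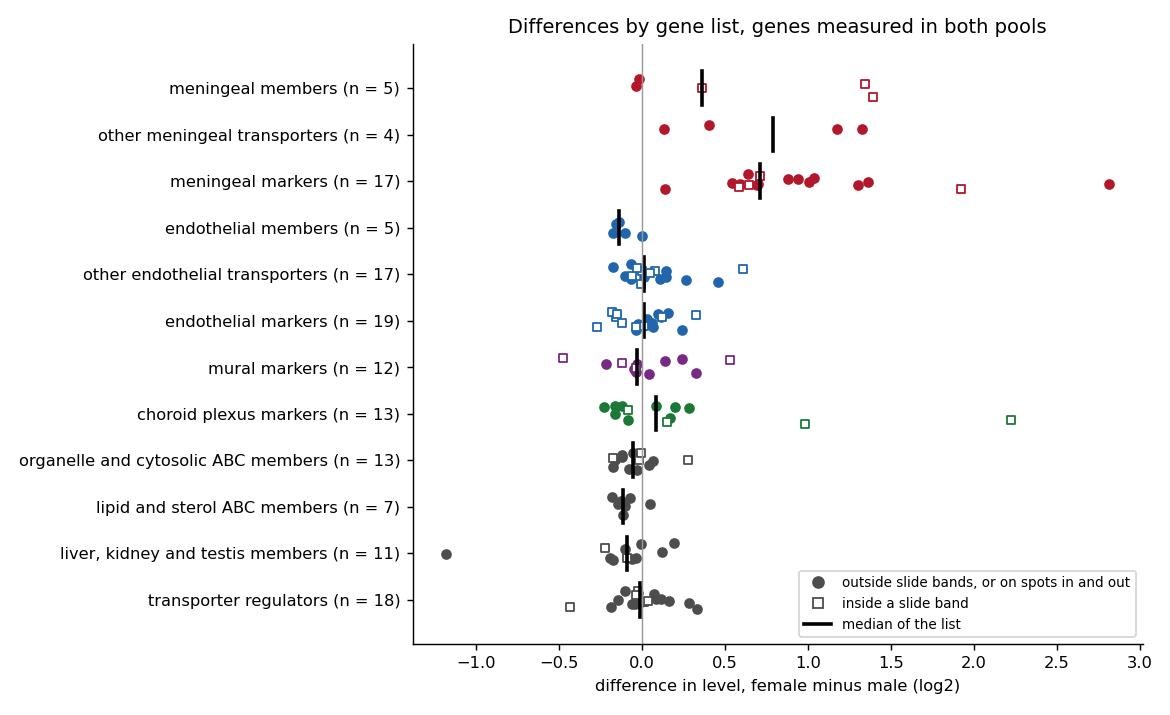
Differences in level, female minus male (log2), of genes measured in both pools, in the member, transporter and marker lists; filled circles are genes outside the slide bands or on spots in and out of them, open squares genes inside a band, and black lines list medians. The meningeal lists have medians of 0.36, 0.79 and 0.71, and the endothelial lists have medians of -0.14, 0.010 and 0.015.

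The transcript starts of the meningeal carriers are shown because the 4 carriers lay on the same side of 0. Of the 4, the RefSeq promoter table (assembly GRCr8) held Slc22a8 and Slc22a2, each as 250 bases before to 50 after the start, on the transcript strand. Capitals mark matches to 3 motifs searched on both strands: the GC box GGGCGG, the box CCAAT and the TATA box TATAAA.
Slc22a8, chr1:214927034-214927333, plus strand: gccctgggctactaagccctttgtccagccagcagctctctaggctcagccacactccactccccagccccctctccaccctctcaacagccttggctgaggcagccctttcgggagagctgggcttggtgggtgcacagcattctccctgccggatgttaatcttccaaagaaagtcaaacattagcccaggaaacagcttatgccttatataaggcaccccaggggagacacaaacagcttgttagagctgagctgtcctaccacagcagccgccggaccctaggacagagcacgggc
Slc22a2, chr1:50710970-50711269, minus strand: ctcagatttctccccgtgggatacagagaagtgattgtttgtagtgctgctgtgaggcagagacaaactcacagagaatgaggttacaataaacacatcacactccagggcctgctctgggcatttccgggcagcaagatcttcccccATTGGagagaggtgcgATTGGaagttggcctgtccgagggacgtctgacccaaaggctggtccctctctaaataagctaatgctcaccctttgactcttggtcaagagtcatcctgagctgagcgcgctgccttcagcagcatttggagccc
The Slc22a8 promoter held none of them, and that of Slc22a2 held CCAAT at 2 positions on the opposite strand. Over all 33469 promoters of the table, 33.1% held the GC box, 37.5% CCAAT and 14.2% the TATA box. Of the 62 promoters of the transporter set in the table, 31 held the GC box, 22 held CCAAT and 10 held the TATA box. The matches describe these letters and say nothing on binding.

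Abcc9 encodes SUR2, the sulfonylurea receptor that forms the potassium channel of pericytes with Kcnj8. Of its 3 probes, 1 was measured in both pools, with 16.0% of the 75th percentile in the female pool, against 11.3% in the male pool. The difference was 0.50, or 1.41-fold, with a technical SD of 0.12. That spot lay inside a band where 27 of 123 nearby repeated spots departed. A second probe, outside the bands, was measured in the female pool only, at -7.45 in the female pool, against -8.07 in the male pool, and the third was below background in both. The 12 mural markers had a median of -0.032, with the largest differences at 0.53 for Cnn1, -0.47 for Notch3, 0.32 for Des and 0.24 for Tagln. Cnn1 and Notch3 lay inside a band. Kcnj8 differed by -0.22, so the channel partner of Abcc9 lay on the other side of 0.

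Abcc1, the glutathione conjugate pump MRP1 of the choroid plexus and many other cells, was higher in the female pool on each of 3 probes, all outside the slide bands. The probe differences were 0.22, 0.50 and 0.43. The mean was 0.38, or 1.30-fold, with a technical SD of 0.059, which leaves out the spread between the 3 probes. The 3 probes thus parted the pools the same way. Slco1a5, the rat Oatp3 of choroid plexus, had a level of -5.89 in the female pool, against -5.58 in the male pool, a difference of -0.30 with a technical SD of 0.17. Abca4, known for retinoid transport in the retina, was measured in the male pool only, at least 1.77-fold higher there, on a spot inside a band. Among all genes measured in the male pool only, 23.4% had a bound of 2-fold or more.

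The choroid plexus genes thus had no common direction, and their markers had none either. Of 13 measured choroid plexus markers, 7 lay higher and 6 lay lower in the female pool, the median being 0.081. Their summed intensity was 331% of the 75th percentile in the female pool, against 226% in the male pool. Without Ttr the sums were 118% in the female pool, against 119% in the male pool, and the median was -0.0023. Kcnj13 at 2.22 and transthyretin, Ttr, at 0.98 made the largest differences, both inside a band. Outside the bands, Col8a1 differed by 0.28 and Kcne2 by -0.23. Without the bands, 4 of 9 were higher and the median was -0.086. The part of these markers in the difference of Abcc1 was not tested.

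Of 19 transporters known mainly from liver, kidney and testis, 11 were measured in both pools and 6 in neither. Over all 26328 gene names, 20664 were measured in both pools and 4820 in neither. Of the 19, Slco4c1 was found in the female pool alone and Slco1b2 in the male pool alone. The 11 had a median difference of -0.092, with 2 higher and 9 lower in the female pool. After the normexp correction without spots of flagged local background, 8 were higher and 3 lower, with a median of 0.087, or 0.038 minus the median of all genes. Slc22a3, the monoamine carrier OCT3 of the cluster that holds Slc22a2, had a probe 385.8 kb from that of Slc22a2. It differed by 0.049 with a technical SD of 0.070. Abcc6, a liver gene whose loss calcifies connective tissue in humans, differed by -0.23 inside a band with a technical SD of 0.14. Slc22a7, the anion exchanger OAT2, differed by -0.19 with a technical SD of 0.20. Slc47a2, the second multidrug and toxin extruder, differed by -0.18 with a technical SD of 0.17, while Slc47a1 lay 1.39 higher. Slco1b2, the liver uptake carrier of bile acids and statins, was measured in the male pool only by 1 probe inside a band, at least 1.17-fold higher, and not by its probe on 10 spots.

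All 13 ABC genes of organelles and of the cytosol were measured in both pools, beside 78.5% of all gene names. The largest difference was 1.21-fold. Their median was -0.055, with 3 higher and 10 lower in the female pool. Abcf1, which binds ribosomes and promotes translation initiation, differed by 0.28 inside a band with a technical SD of 0.078. Abcd2, a peroxisomal importer of very long chain fatty acids, differed by -0.18 inside a band with a technical SD of 0.072. Abcf3 differed by -0.17 with a technical SD of 0.045, and the ribosome recycling factor Abce1 by -0.16 with a technical SD of 0.039.

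Of 8 ABC genes for lipids and sterols on the arrays, 7 were measured in both pools and Abca13 in neither. Their median was -0.12, with 1 higher and 6 lower in the female pool, the same split as without the slide bands. Abca1, the cholesterol exporter that loads apolipoprotein E in brain, had a level of -3.34 in the female pool, against -3.16 in the male pool, a difference of -0.18 with a technical SD of 0.073. Abca5 differed by -0.14 with a technical SD of 0.11. Abca7, a phospholipid transporter of microglia and neurons, differed by -0.13 with a technical SD of 0.045. Abcg1, which passes cholesterol to lipoproteins, was the gene on the other side, at 0.046. The liver X receptors Nr1h2 and Nr1h3, which induce Abca1, differed by -0.026 and 0.011.

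All 7 carnitine, cation and orphan Slc22a carriers were measured in both pools, 5 higher and 2 lower in the female pool, the median being 0.049. Slc22a5, the carnitine carrier OCTN2, differed by 0.18 with a technical SD of 0.16. Slc22a4, the ergothioneine carrier OCTN1, differed by -0.22 inside a band with a technical SD of 0.11. Slc22a23, an orphan carrier of brain, showed how far probes of 1 gene can part. Its probe on 10 spots differed by -0.053 ± 0.034 (SD over 10 spots), while its probe on 1 spot inside a band differed by 0.82, and their mean was 0.38.

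Of the 17 genes in none of these lists, 11 were measured in both pools, 3 higher and 8 lower in the female pool. Slco1a6, a kidney carrier of the rodent Oatp cluster, had a level of -6.35 in the female pool, against -5.96 in the male pool, a difference of -0.40 with a technical SD of 0.16. Slco4a1, a thyroid hormone carrier, differed by 0.34 inside a band with a technical SD of 0.088. Abcc8, the sulfonylurea receptor SUR1 of neurons and beta cells, differed by -0.15 with a technical SD of 0.045. Abcb1b, the second rodent P-glycoprotein gene, had 2 probes that share 35 bases, shown in capitals.
Abcb1b, first probe, chr4:21912155-21912214, plus strand: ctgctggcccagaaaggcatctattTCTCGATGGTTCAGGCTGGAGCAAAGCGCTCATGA
Abcb1b, second probe, chr4:21912180-21912239, plus strand: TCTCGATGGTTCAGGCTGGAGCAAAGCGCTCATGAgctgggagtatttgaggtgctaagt
The first differed by -0.036 outside the bands and the second by 0.22 inside a band, with technical SDs of 0.051 and 0.14. These overlapping probes of 1 gene thus parted by more than the difference found for Abcb1a, whose probe lay 116.3 kb away.

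The probes on repeated spots gave the most precise values, since each was read on about 10 places of the slide. They covered 10 genes, 9 of them measured in both pools. Abcb9, a lysosomal peptide transporter, differed by -0.16 ± 0.050 (SD over 10 spots), lower in the female pool on 10 of 10 spots. Abcf2 differed by -0.12 ± 0.037, Abcg4 by -0.070 ± 0.039 and Abcc5, the cyclic nucleotide pump MRP5, by -0.066 ± 0.036, each lower on 10 of 10 spots. Abca2, a lipid transporter of oligodendrocyte lysosomes, differed by -0.10 ± 0.060 and was lower on 9 of 10 spots. Slc22a17, the lipocalin-2 receptor, differed by 0.020 ± 0.038 and Abcc2, the bile pump MRP2, by -0.039 ± 0.058. The 9 measured genes lay within 1.12-fold on these probes. With 1 array per sex, sex and array cannot be told apart in a difference of any size.

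**Figure D4:**
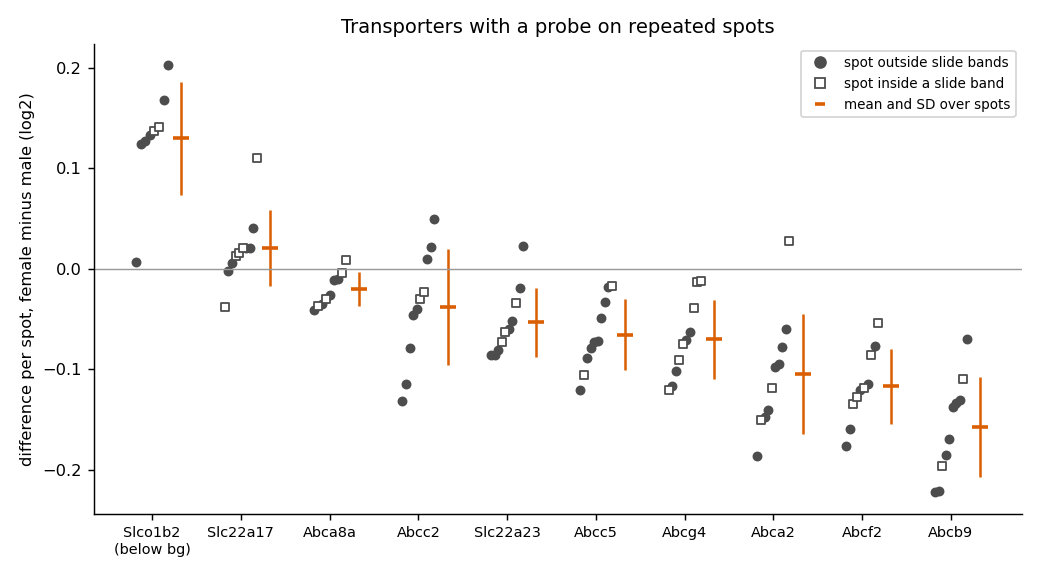
Difference per spot, female minus male (log2), for the 10 transporters with a probe on repeated spots, with filled circles outside and open squares inside the slide bands and the mean and SD over spots in orange. Abcb9, Abcf2, Abcg4 and Abcc5 are below 0 on 10 of 10 spots, and Slco1b2 was not well above background on this probe.

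By family, the 37 ABC genes measured in both pools had a median of -0.063, with 9 higher and 28 lower on the female array. The 15 Slc22a genes had a median of 0.049, with 9 higher and 6 lower. The 8 Slco genes had a median of -0.11, with 1 higher and 7 lower. The 2 Slc47a genes lay on opposite sides, at 1.39 and -0.18. After the normexp correction without spots of flagged local background, the splits were 14 higher and 23 lower for ABC, 13 and 2 for Slc22a and 3 and 5 for Slco genes. Of all genes, 63.6% were higher with that correction. Minus the median of all genes, the medians there were -0.072 for ABC, 0.12 for Slc22a and -0.077 for Slco genes. Quantile normalization, where 44.5% of all genes were higher, gave 7 higher and 8 lower for Slc22a genes, whose median minus that of all genes was 0.0056. Outside the slide bands 10 of 36 transporters, or 27.8%, were higher in the female pool, beside 49.0% of all genes there. Inside them 7 of 15 transporters, or 46.7%, were higher, beside 50.4% of all genes there. The medians of the ABC, Slc22a and Slco genes were smaller in size than the SD of 0.23 over all genes. That SD is the spread of single genes and does not measure how far a median scatters.

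The nuclear receptors and partners that control these genes in liver and gut were measured too. Of 20 on the arrays 18 were measured in both pools, 8 higher and 10 lower in the female pool, the median being -0.015. Nr1i2, the pregnane X receptor that induces Abcb1a, differed by 0.33 with a technical SD of 0.094, Pparg by 0.28 and Srebf1 by -0.19. Hnf4a, a nuclear receptor of liver and kidney, differed by -0.44 on a spot inside a band. The scaffold protein Pdzk1, which binds Slc22a carriers in kidney, was measured in the male pool only, at least 1.63-fold higher there. Its spot also lay inside a band. Of the ABC family genes under other names, the peptide transporter genes of antigen presentation Tap1 and Tap2 differed by 0.23 and 0.18, and Cftr was below background in both pools.

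Of the 79 transporters, 13 were not well above background in either pool, beside 4820 of all 26328 gene names. The 13 were Abca13, Abca15, Abcb11, Abcc3, Abcc12, Abcg8, Slc22a20, Slc22a22, Slc22a24, Slco1a1, Slco2a1, Slco6b1 and Slco6c1. They include the bile salt pump Abcb11, the sterol transporter Abcg8, the prostaglandin carrier Slco2a1 and the testis carriers Slco6b1 and Slco6c1. No fold is given for them, since both pools lay under the limit of detection. No spot of the set was saturated in either pool.

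The differences of 8 transporters under the alternative processing settings are shown in the plot of settings. Slc22a6, Slc22a8, Abcg2 and Slco1c1 kept their sign in every setting that gave a value. The normexp correction fitted on all spots turned the sign of Slc47a1, of the bound of Slc22a2 and of Abcc1, which came out at -0.53. The one fitted without spots of flagged local background turned the sign of Abcb1a.

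**Figure D5:**
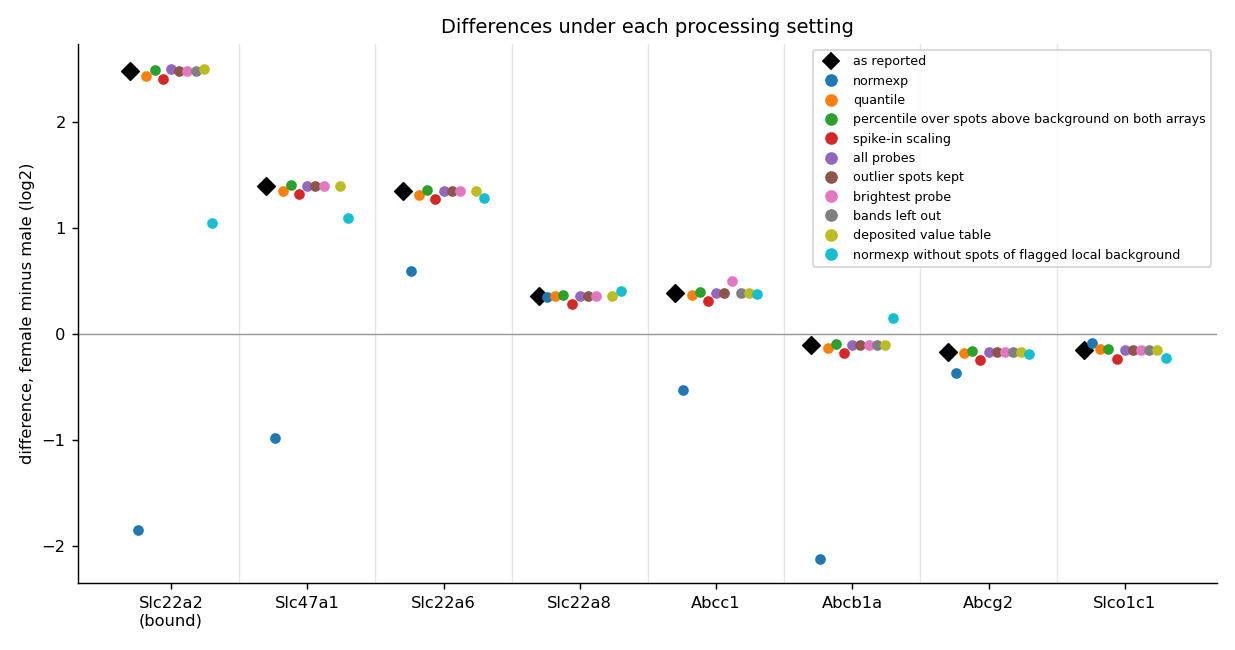
Difference, female minus male (log2), of 8 transporters under the processing as reported (black diamonds) and under 10 alternatives (coloured circles); Slc22a2 is a bound. The points of each gene lie close together except for the normexp corrections and for the settings without the slide bands, where Slc22a6, Slc22a8 and Slc47a1 have no value.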

How the data were processed

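RNA of 1 pool per sex was read on 1-colour arrays. Per the file headers, the deposited intensity of each spot is the processed signal, background-subtracted and detrended by Feature Extraction 10.7.3.1 with the build rn4; the submitters' processing notes name version 9.1. The deposited value table holds a signal scaled by the authors to the 75th percentile of each array, and was used as an alternative. From the intensities, log2 levels were taken minus the 75th percentile of the non-control spots, without spots flagged as outliers, then averaged per probe and per gene over measured probes. Where 1 pool was not well above background, the brighter level was set against the higher of the array's lowest measured level and the dim probe's own. Of 97 probes, 89 matched a RefSeq accession (GRCr8), and 1 symbol differed. Slide bands are bins of 20 rows where at least 2% of repeated spots departed by over 4 robust SDs.

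No test was possible with 1 array per group, and counts are set beside the share of all genes. The precision of each value is limited by the number of arrays. The members and lists were chosen with earlier results of these data known. The genes named are all meningeal, endothelial, pericyte and choroid plexus members, the 3 largest differences of each other member list, members past 1.5-fold, the 5 largest bounds (only 4 existed), members on repeated spots or with probes over 0.5 apart, and the 4 largest differences of each other list. Named outside this rule, after their values were seen, are Abcb1b, Abce1, Abcg1, Slc22a3, Slc47a2, Kcnj8, Slc2a1, Mfsd2a, Nr1h2, Nr1h3 and the further markers given. The results of 1 member and 1 regulator are not reported here, though counts and medians include them. The calculation was tested on simulated data. Alternatives were 9 planned settings and 1 added after seeing the data. Python 3.11.15, numpy 2.4.6, pandas 2.3.3, matplotlib 3.10.9, R 4.3.3 and limma 3.58.1 (normexp, offset 50) were used.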

Additional observations from a re-analysis of the deposited data

How the results depend on the processing

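Each result was recomputed under 9 planned settings and under 1 chosen after seeing the data. Over the 644 values of single genes, 514 moved by no more than their technical SD, 127 moved by more and 3 changed sign from a difference or bound of at least 1.5-fold. Of the 90 values of counts and medians, 67 stayed within 1.5-fold or the technical SD. A normexp correction fitted on all spots moved the most. The male array held a spot at -19745 after subtraction of its local background, and the fitted background there was -594.6, against -1.193 without the 25 spots of flagged local background. With this fit on all spots, 10 transporters were higher in the female pool, beside 22.9% of all genes. Past 2-fold were 20 transporters and past 1.5-fold 31, while 9 of all 20664 genes were 2-fold higher and 7806 2-fold lower. The medians were -0.55 over all transporters, -0.025 over meningeal, -0.37 over endothelial and -2.26 over liver, kidney and testis genes, with a meningeal minus endothelial gap of 0.35, and all genes had a median of -0.55. It put the bound of Slc22a2 at -1.86 and Slc47a1 at -0.99. Fitted without the flagged spots, a setting added after seeing the data, 32 transporters were higher, beside 63.6% of all genes. There the median of all genes was 0.050, the liver, kidney and testis median was 0.087 and the bound of Abca4 became 0.12. With spike-in scaling 13 were higher, beside 30.1% of all genes, with medians of -0.12 over all transporters and -0.22 over endothelial genes. Spike-in scaling moved the median of all genes to -0.076. With probes below background included, 32 transporters were higher, beside 54.8% of all genes. Past 2-fold were 6 transporters and past 1.5-fold 8, while 546 of all 26328 genes were 2-fold higher and 458 2-fold lower. The meningeal median was 0.85 and the gap 0.99. With the slide bands left out, 11 of 47 transporters were higher, beside 49.3% of all genes. Past 2-fold were 0 of these transporters, beside 0.235% of all genes. The meningeal median was -0.031 and the gap 0.11, since Slc22a6, Slc22a8 and Slc47a1 lost their spots. No paired analysis was possible because each group held 1 array. The 46 measured genes read by 1 spot and the lack of a second array per sex limit every value.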
